A study of Mus musculus with 56 samples.

Results

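The 10 genes described here encode leukocyte integrin chains and their partners on the vessel wall: the integrin chains Itgb2, Itgal, Itgam, Itgax, Itga4 and Itgb7, the selectin ligand Selplg, and the vascular ligands Icam1, Icam2 and Vcam1. They were chosen by symbol as a functional group, and each symbol was found on 1 of the 45513 genes counted in the livers of 56 mice. The choice was made with earlier results of these data known. Among these, the paper lists Itgb2, Itga4, Icam1, Vcam1 and Selplg (as Psgl-1) as favorably regulated by imatinib in liver. All mice were females of the APOE*3Leiden.CETP strain, aged 9 to 14 weeks when they entered the study, on a Western-type diet with 15% cacao butter and 0.15% cholesterol. They carry the human APOE*3-Leiden and APOC1 genes and human CETP with its own flanking regions, which slows the clearance of lipoprotein remnants, and no wild-type mice were among them. Each of the 7 groups held 8 mice. Control mice received the vehicle, 5% carboxymethyl cellulose, by gavage, and the BCR-ABL1 tyrosine kinase inhibitors (TKIs) were imatinib at 150 mg/kg in 2 gavages daily, nilotinib at 10 or 30 mg/kg and ponatinib at 3 or 10 mg/kg in 1 gavage daily, for 16 weeks after 3 weeks on the diet alone. A further group received L-NAME, an inhibitor of nitric oxide synthases, at 0.12 to 0.20% in the drinking water together with vehicle gavage, for a time that is not given in the sources used here. The paper states that in all its groups but imatinib a second gavage held the vehicle alone, and it does not describe the L-NAME group.

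Leukocytes leave the blood in steps. PSGL-1, the product of Selplg, first binds selectins and lets the cell roll, after which chemokine signals switch integrins from a resting to a binding shape. The β2 chain (Itgb2) is shared by the αL chain (Itgal), typical of lymphocytes and also present on myeloid cells, by the αM chain (Itgam) of neutrophils, monocytes and macrophages and by the αX chain (Itgax) of dendritic cells and some macrophages. Their counter-receptors are ICAM-1, which inflammatory signals induce, and ICAM-2, which endothelium carries at rest. The α4 chain (Itga4) pairs with the β1 or the β7 chain (Itgb7) and binds VCAM-1, which in liver is found on activated endothelium and also on Kupffer cells. Liver is a tissue in which such genes come from the minority of non-parenchymal cells. In whole liver, fewer cells of a type and less RNA per cell cannot be told apart.

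The libraries held 5342379 to 97473341 reads on annotated genes (median 7570238). L-NAME replicate 2 was the deepest library, and the next deepest held 17996732 reads. The share of uniquely aligned reads outside annotated genes was 7.97% ± 0.42 in control mice and 10.0% ± 1.82 with imatinib (SD, n = 8 mice each). The means of the other groups lay between 8.53% and 11.0%. The hepatocyte markers Alb, Cyp2e1 and Apoa1 led their list in abundance, and the summed level of 8 hepatocyte markers lay between 71045 and 154298 CPM, counts scaled to library size with TMM factors, in the 56 mice. Nothing in the labels gives a sequencing batch.

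All 10 genes passed the filter on low counts and were among the 14314 genes tested. On GRCm38, Itgal (chromosome 7, 127296260 to 127335138), Itgam (128062640 to 128118491) and Itgax (128129547 to 128150657) lie on the same strand of the same chromosome. Itgb2 lies on chromosome 10 (77530252 to 77565708), Itga4 on chromosome 2 (79255426 to 79333123) and Itgb7 on chromosome 15 (102215995 to 102231944). Selplg lies on chromosome 5 (113818536 to 113832644), Icam1 on chromosome 9 (21015985 to 21028817), Icam2 on chromosome 11 (106377656 to 106388075) and Vcam1 on chromosome 3 (116109949 to 116129688). In the GENCODE M21 annotation, 68.7% of the exonic bases of Itgam are shared with Gm49368 on the same strand, a gene model without a row in the counts. Itga4 shares 8.04% of its exonic bases with Cerkl on the opposite strand, and Icam1 shares 11.7% with Gm47079. Gm47079 has no row in the counts either, so reads of the bases that Itgam and Icam1 share with these models may stand under Itgam and Icam1. For Itgam strand could not separate the 2 models.

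The RefSeq promoter table (GRCm38.p6) holds Itga4, Itgam, Itgax, Itgb7 and Icam1, 5 of the 10 genes. The 250 bases before the start site are shown for 3 of them: Itga4, which fell with imatinib, Icam1, the inducible ligand, and Itgam, the myeloid integrin chain. Capitals mark matches to GGNNNTTCC, a form of the NF-kappaB site, or to GAGGAAG, the core bound by the myeloid factor PU.1, on either strand.
Itga4, chr2:79255176-79255425, plus strand: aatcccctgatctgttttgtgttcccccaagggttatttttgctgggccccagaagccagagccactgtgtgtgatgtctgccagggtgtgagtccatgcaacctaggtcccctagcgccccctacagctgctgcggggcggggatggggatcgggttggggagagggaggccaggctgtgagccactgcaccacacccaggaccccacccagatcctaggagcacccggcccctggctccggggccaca
Icam1, chr9:21015690-21015939, plus strand: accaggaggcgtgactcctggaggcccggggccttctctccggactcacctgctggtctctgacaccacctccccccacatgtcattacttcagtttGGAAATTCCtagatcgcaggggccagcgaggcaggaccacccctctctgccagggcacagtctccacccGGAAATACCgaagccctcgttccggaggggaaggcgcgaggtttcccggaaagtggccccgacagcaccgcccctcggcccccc
Itgam, chr7:128062390-128062639, plus strand: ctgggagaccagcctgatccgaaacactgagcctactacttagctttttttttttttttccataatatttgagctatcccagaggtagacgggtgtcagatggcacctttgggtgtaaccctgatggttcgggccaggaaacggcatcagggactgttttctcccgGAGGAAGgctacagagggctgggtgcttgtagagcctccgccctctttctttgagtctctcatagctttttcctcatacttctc

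The Icam1 window held GGNNNTTCC at 2 places, from base -153 to -145 on both strands, the palindrome counting on each, and from -84 to -76 on the minus strand, counted from the start site. The Itgam window held GAGGAAG once, from -84 to -78 on the plus strand. Among the 32851 promoters of the table, 15.7% held GGNNNTTCC and 10.6% held GAGGAAG in the same 250 bases on either strand. TATAAA was searched as well and stood in 12.4% of the promoters and in none of the 5. No match was found in the windows of Itga4, Itgax and Itgb7.

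In control mice, Itgb2 had the highest level per length of the 10 genes, 12.6 ± 4.44 CPM per kb of exon (SD, n = 8 mice), followed by Icam1 with 9.34 ± 2.49 CPM per kb. Itgal reached 6.09 ± 1.2 and Vcam1 5.71 ± 1.88 CPM per kb. Itgb7, Itgax, Selplg and Icam2 were at 2.16 ± 0.81, 2.14 ± 1.51, 2.05 ± 0.69 and 1.80 ± 0.67 CPM per kb, and Itgam and Itga4 both at 0.73 CPM per kb (SD 0.29 and 0.33). Of the 9 steps in this order, 3 were larger than the SD of the difference within mice: Icam1 over Itgal, Vcam1 over Itgb7 and Icam2 over Itgam, each in 8 of 8 mice. The remaining neighbours did not differ beyond their spread. Among the partners of β2, the αL chain stood first in level per length, followed by αX and αM.

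**Figure D1:**
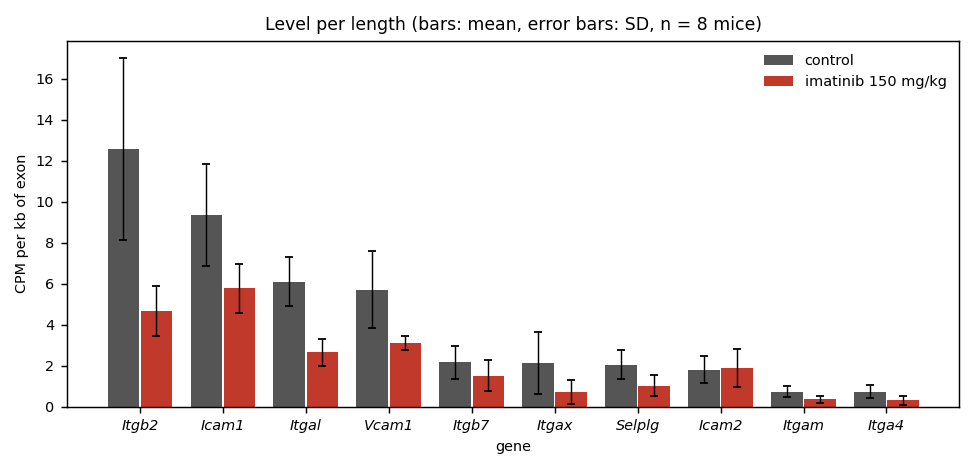
Level of the 10 adhesion genes per kb of exon in control mice (grey) and in mice given imatinib 150 mg/kg (red), in CPM per kb, as mean with SD over 8 mice. Genes stand in the order of their control level, from Itgb2 at 12.6 to Itga4 at 0.73 CPM per kb, and Icam2 is the only gene whose mean was not lower with imatinib.

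The spread among the 8 control mice was wide. The coefficient of variation of CPM ranged from 19.8% for Itgal to 70.5% for Itgax, where counting error alone gives 5.39% and 17.2%. Itgax reached 18.3 CPM in the highest control mouse and 1.08 CPM in the lowest, 17.0 times less. Itgal differed 1.80-fold between its highest and lowest control mouse. A gene had no read at all in 5 single cases, Itgam with ponatinib 3 mg/kg, Itgax and Itga4 with ponatinib 10 mg/kg, Itgb7 with nilotinib 10 mg/kg and Icam2 with imatinib, each in 1 mouse, where a count of 0 allows up to 3 reads or between 0.405 and 0.540 CPM. This limit covers counting error only.

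Imatinib lowered 4 of the 10 genes as compared to control in edgeR's quasi-likelihood test, with p-values adjusted by Benjamini-Hochberg over all genes and a threshold of 0.05: Itgb2, Itgal, Itga4 and Vcam1. None of the 10 was higher. Over all genes, 10.2% passed the same test and 4.50% passed it as lower. Because the members were chosen with earlier results of these data known, their count beside this share is a description only. The members' median log2 fold change was -1.04, beside -0.02 over all genes tested, and 9 of 10 members were below 0, as were 7434 of the 14314 genes. The smallest adjusted p-values belonged to Itgb2 and Itgal, which together form the αLβ2 integrin LFA-1.

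Itgb2, the common β2 chain, was between 20.5 and 58.4 CPM in control mice with a median of 36.2. With imatinib it was between 11.8 and 23.3 CPM with a median of 12.8. In 7 of 8 mice given imatinib Itgb2 was below every control mouse, and the remaining mouse, replicate 2, lay within the control range. The log2 fold change was -1.44 (95% interval -2.09 to -0.78, standard error 0.32, adjusted p = 0.0026 from edgeR), or 2.70-fold lower.

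Itgal, the αL chain, was between 28.0 and 50.4 CPM in control mice (median 38.9) and between 10.3 and 23.0 CPM with imatinib (median 16.9). It was the only member for which the 2 groups did not overlap, with 8 of 8 mice below every control mouse, as was the case for 0.433% of all genes tested. It fell 2.31-fold (log2 fold change -1.21, 95% interval -1.80 to -0.61, standard error 0.30, adjusted p = 0.0054 from edgeR).

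Itga4, the α4 chain, was between 2.96 and 16.0 CPM in control mice (median 9.00) and between 0.854 and 9.57 CPM with imatinib (median 3.55). Only 3 of 8 mice lay below every control mouse, so the groups overlapped over much of their range. The gene fell 2.45-fold (log2 fold change -1.29, 95% interval -2.14 to -0.45, standard error 0.42, adjusted p = 0.036 from edgeR). Its partner chain Itgb7 was between 0.285 and 7.04 CPM with imatinib and between 1.62 and 8.98 CPM in control mice, and edgeR gave -0.53 on the log2 scale (adjusted p = 0.55).

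Vcam1, the endothelial and macrophage ligand of α4 integrins, was between 29.0 and 70.6 CPM in control mice (median 50.9) and between 21.2 and 31.9 CPM with imatinib (median 27.6). The imatinib values stood close together, with an SD of 3.14 CPM against 16.7 CPM in control mice, and 5 of 8 lay below every control mouse. Vcam1 fell 1.85-fold (log2 fold change -0.89, 95% interval -1.45 to -0.32, standard error 0.28, adjusted p = 0.035 from edgeR). In fits that each left out 1 mouse, Itgb2 and Itgal were called in 56 of 56, Vcam1 in 48 and Itga4 in 46. Every fit that lost Vcam1 or Itga4 left out 1 of the 8 control or 8 imatinib mice. Mice of the other groups enter this comparison only through the shared fit. The number of members called fell to 2 without control replicate 1, 5 or 6 or imatinib replicate 3 or 4. It was also 2 when each library's percentage of reads off annotated genes entered the model, with Itga4 at an adjusted p of 0.054 and Vcam1 at 0.11 (edgeR), and 2 without the 3 mice in which this percentage exceeded 14.

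The other members with imatinib did not pass the adjusted threshold. At an unadjusted p below 0.01, the value of the paper's cut-off, 5 members passed, beside 1828 of the 14314 genes. Itgax joined the 4 here (unadjusted p = 0.0077), while Icam1 (0.012) and Selplg (0.020) stayed above 0.01, all from edgeR. Itgax, the αX chain, was at 3.41 ± 2.89 CPM with imatinib and, in control mice, at 10.3 ± 7.25 CPM (SD over 8 mice). Its estimate, -1.60 on the log2 scale, was the farthest from 0 of the 10 (95% interval -2.76 to -0.44, edgeR adjusted p = 0.066). Icam1 was at 25.1 ± 5.23 and 40.7 ± 10.9 CPM (log2 fold change -0.70, edgeR adjusted p = 0.090), with 4 of 8 mice below every control mouse. Selplg was at 4.37 ± 2.19 and 8.75 ± 2.95 CPM (log2 fold change -0.99, edgeR adjusted p = 0.12). Itgam, which marks myeloid cells, was at 1.73 ± 0.78 and 3.67 ± 1.44 CPM (log2 fold change -1.08, edgeR adjusted p = 0.29). Icam2, the ligand of resting endothelium, was at 3.58 ± 1.79 and 3.42 ± 1.28 CPM, with a log2 fold change of 0.06 and a 95% interval of -0.82 to 0.95. DESeq2 called Itgax and Icam1 in addition to the 4, beside 1836 of the 14314 genes. Itgb2, Itgal and Itga4 were called by limma voom, beside 1760 genes.

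**Figure D2:**
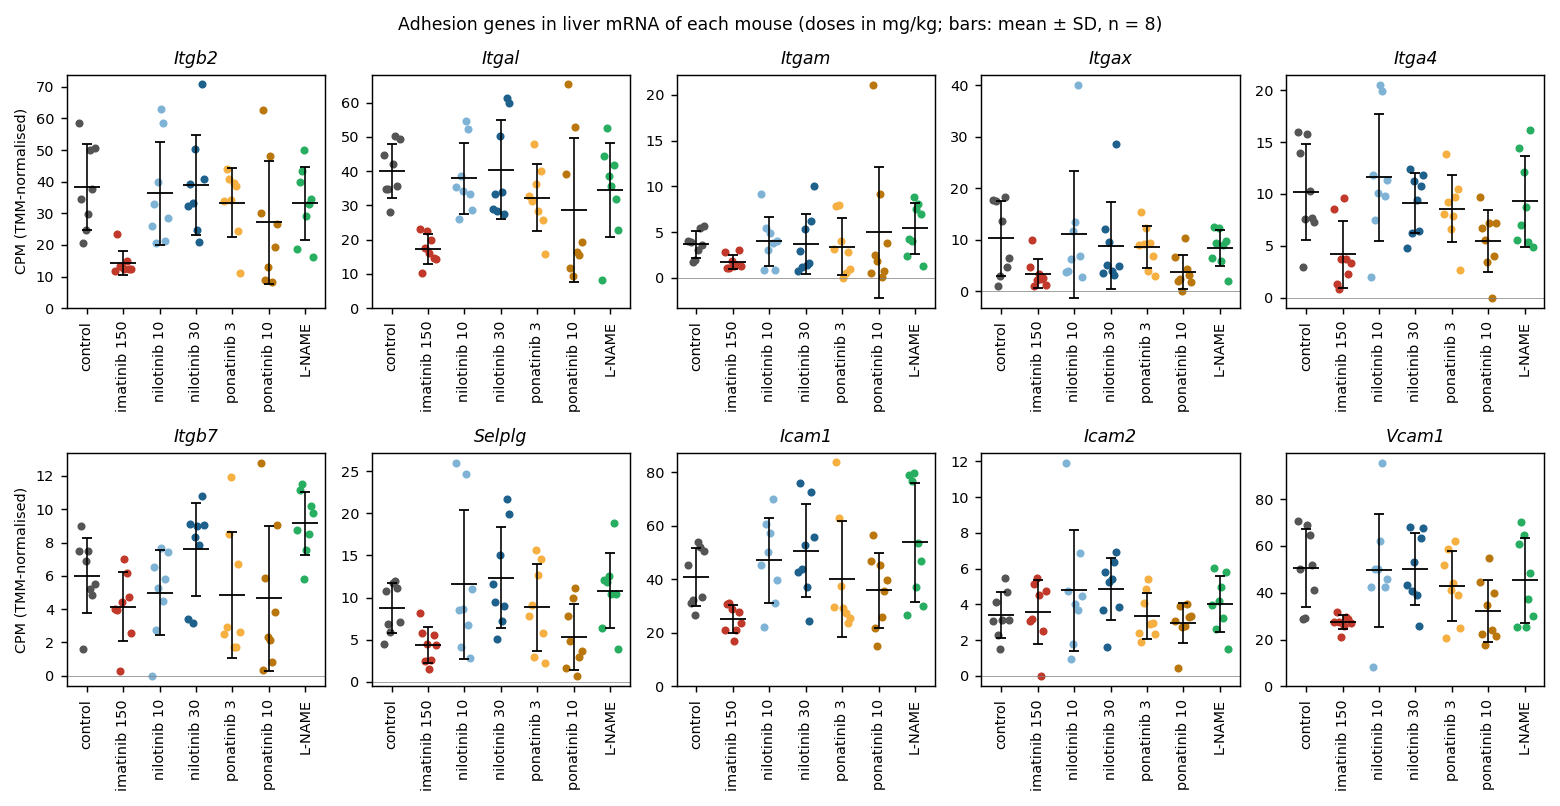
TMM-normalised CPM of each of the 10 genes (panels) in every mouse (points) of the 7 groups, with mean and SD as bars over 8 mice. The imatinib points of Itgal lie wholly below the control points and those of Vcam1 stand close together, whereas ponatinib 10 mg/kg spreads from 8.41 to 62.7 CPM for Itgb2.

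Some lists of leukocyte markers were lower in the same comparison, and others were not. Of 7 pan-leukocyte genes, led by Lcp1, Laptm5 and Ptprc, 5 were lower with imatinib and none higher, and their summed level was between 158 and 223 CPM with imatinib and between 209 and 418 CPM in control mice. Of 10 Kupffer cell and macrophage markers, Cd5l and Adgre1 were lower, and the summed level was between 557 and 1135 CPM with imatinib and between 910 and 1755 CPM in control mice. The monocyte markers held 1 lower gene of 6 tested, Lyz2, which codes for lysozyme, and were between 91.2 and 194 CPM in sum, beside 142 to 423 CPM. None of 10 sinusoidal endothelial markers, led by Stab1, Stab2 and Clec4g, passed, and their summed level was between 329 and 545 CPM with imatinib and between 221 and 645 CPM in control mice. No marker of neutrophils (4 tested), dendritic cells (6), T and NK cells (9), B and plasma cells (5) or cholangiocytes (5) passed, and the neutrophil marker Ly6g had no read in either group. The summed T and NK cell markers had a median of 9.81 CPM with imatinib and 9.06 CPM in control mice, and B and plasma cell markers 11.8 and 7.92 CPM. Neutrophil markers had medians of 10.3 and 12.3 CPM and dendritic cell markers 18.5 and 22.4 CPM. Among hepatic stellate markers Ecm1 was higher, and among hepatocyte markers Tat was lower and Apoa1 and Ttr higher. The part of these cell types in the results above was not tested.

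With nilotinib, none of the 10 genes passed edgeR's adjusted threshold at 10 mg/kg, where 1.47% of all genes did, or at 30 mg/kg, where 5.71% did. DESeq2 and limma voom called none either, and no member had an unadjusted p below 0.05, beside 14.1% and 18.4% of all genes. The members' median log2 fold change was 0.11 with the lower dose and 0.02 with the higher. At 30 mg/kg, Itgb2 was between 20.9 and 70.7 CPM with a median of 36.2, as in control mice. Its log2 fold change was 0.02 with a 95% interval of -0.60 to 0.65. Itgal was at 40.5 ± 14.4 CPM and Vcam1 at 50.1 ± 15.5 CPM, where the control group had 40.0 ± 7.91 and 50.6 ± 16.7 CPM (SD over 8 mice). The interval of Itgam, a gene of few reads, was wide, from -1.19 to 1.21 at 30 mg/kg. Of the leukocyte and macrophage markers 1 passed with nilotinib, Clec4f, a Kupffer cell lectin, which was higher at 30 mg/kg, and the summed pan-leukocyte level had medians of 317 and 333 CPM at the 2 doses, beside 340 CPM in control mice. Between the 2 doses of nilotinib none of the members differed (0% of all genes at the adjusted threshold and 5.49% at an unadjusted p below 0.05, none of them a member), nor did DESeq2 or limma voom call one. The largest difference between doses was that of Itgb7, 0.60 with an interval of -0.34 to 1.53.

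With ponatinib 3 mg/kg no member passed, and in this comparison 0.00699% of all genes did and 9.72% had an unadjusted p below 0.05, none of them a member. DESeq2 and limma voom called none. The log2 fold changes lay between -0.31 for Itgb7 and 0.02 for Selplg, with a median of -0.22. Here too 9 of 10 members were below 0, as were 7338 of the 14314 genes.

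With ponatinib 10 mg/kg edgeR called none of the 10, while 12.8% of all genes passed. Itgax, Vcam1 and Itga4 had an unadjusted p below 0.05, as did 25.5% of all genes. The members' median log2 fold change was -0.49, beside -0.01 over all genes, and 9 of 10 were below 0, as were 7290 of the 14314 genes. Itgb2 was between 8.41 and 62.7 CPM with a median of 23.0, below every control mouse in 4 mice and above every control mouse in 1. Its SD was 19.5 CPM, beside 13.6 CPM in control mice, and the log2 fold change was -0.50 (95% interval -1.13 to 0.13, adjusted p = 0.34 from edgeR). Itgal spread likewise from 9.39 to 65.4 CPM, with 5 mice below and 2 above the control range. Vcam1 was between 17.5 and 54.7 CPM (log2 fold change -0.65, 95% interval -1.21 to -0.09, adjusted p = 0.12 from edgeR). DESeq2 called Itgax (log2 fold change -1.45, adjusted p = 0.0496), beside 2223 of the 14314 genes. No member was called by limma voom, beside 2318 genes. Voom with sample quality weights called Itgb2 and Itgal, beside 3683 of the 14314 genes. In fits that left out 1 mouse, edgeR called 1 member, Itgax, without control replicate 3 or ponatinib 10 mg/kg replicate 5, and none otherwise. The summed pan-leukocyte level was between 155 and 390 CPM in these mice, Lcp1 being the only one of the 7 genes that passed (lower). Of the Kupffer cell and macrophage markers Cd68 was lower and Clec4f and Marco higher, and the part of these cells in the spread was not tested. Set against 3 mg/kg directly, no member passed with edgeR, DESeq2 or limma voom (1.38% of all genes did with edgeR), and 1 member, Itgax, had an unadjusted p below 0.05, beside 14.1% of all genes. The step from low to high dose did not differ between ponatinib and nilotinib for any member (0% of all genes at the adjusted threshold with edgeR, 5.55% at an unadjusted p below 0.05, none of them a member, and none with DESeq2 or limma voom). Its widest interval was that of Itgam, -1.04 to 2.36.

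With L-NAME none of the 10 passed, while 11.7% of all genes did and 23.9% had an unadjusted p below 0.05, none of them a member. DESeq2 and limma voom called none. Voom with sample quality weights called Itgb7 higher (log2 fold change 0.74, adjusted p = 0.038), in a fit that called 3687 of the 14314 genes in either direction. Itgb7 was between 5.84 and 11.5 CPM with L-NAME (median 9.26) and between 1.62 and 8.98 CPM in control mice (median 6.19), and 4 of 8 mice exceeded every control mouse. Its log2 fold change was 0.61 (95% interval -0.32 to 1.54, adjusted p = 0.47 from edgeR). Icam1 was between 26.6 and 79.7 CPM (log2 fold change 0.40, 95% interval -0.13 to 0.94) and Vcam1 between 25.3 and 70.1 CPM (log2 fold change -0.16). The members' median log2 fold change was 0.06. Among the marker lists, Coro1a of the pan-leukocyte genes and Clec4f of the Kupffer cell markers were higher, and the summed pan-leukocyte level was between 193 and 537 CPM.

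**Figure D3:**
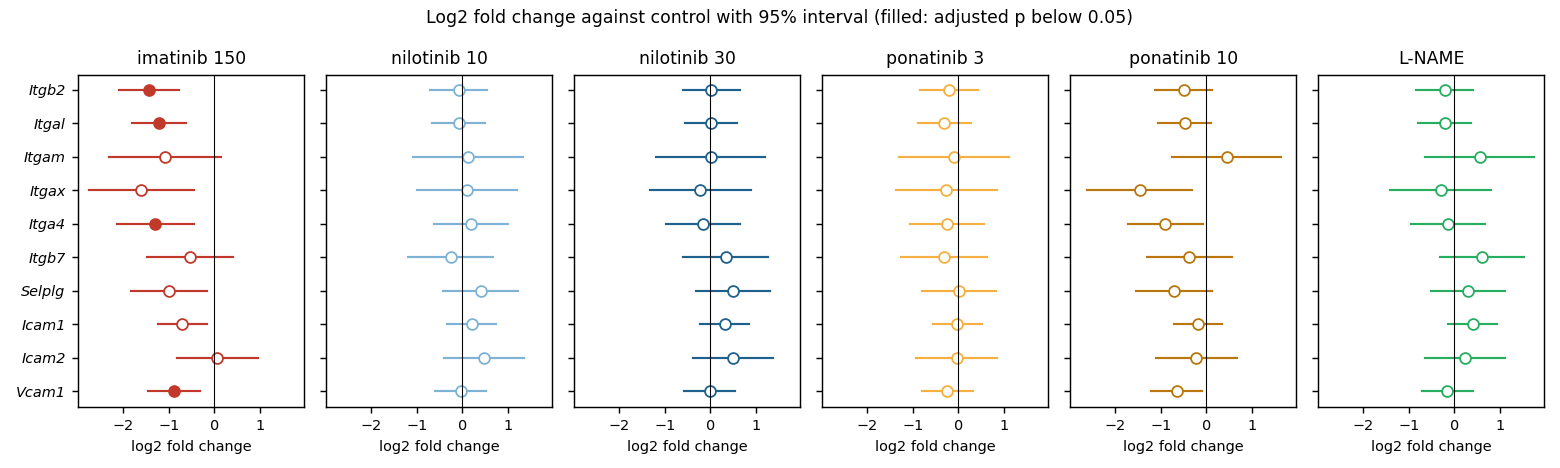
Log2 fold change of the 10 genes against control in edgeR's fit of 56 mice (points) with 95% interval (lines), 1 panel for each treated group, filled where the adjusted p was below 0.05. The 4 filled points are Itgb2, Itgal, Itga4 and Vcam1 with imatinib.

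The drugs were also set against each other in the same fit, at doses that differ in mg/kg except for nilotinib and ponatinib at 10 mg/kg. With imatinib 4 members were lower than with nilotinib 30 mg/kg, where 3.51% of all genes passed: Itgb2 (log2 fold change -1.46, adjusted p = 0.0050), Itgal (-1.22, adjusted p = 0.011), Icam1 (-1.01, adjusted p = 0.022) and Selplg (-1.50, adjusted p = 0.029, all from edgeR). All 10 members were below 0 in this comparison, and Itga4 and Vcam1 were at -1.13 and -0.87 (adjusted p = 0.13 and 0.075 from edgeR). Selplg was between 5.03 and 21.7 CPM with nilotinib 30 mg/kg and between 1.55 and 8.22 CPM with imatinib. Icam1 was between 24.5 and 75.9 CPM with nilotinib 30 mg/kg and between 16.9 and 31.0 CPM with imatinib, so that both ranges overlapped. Without nilotinib 30 mg/kg replicate 7 the count was 2, and limma voom also called 2. In the same comparison 6 of the 7 pan-leukocyte genes and 4 of the 10 Kupffer cell and macrophage markers were lower with imatinib, and their part in the difference was not tested.

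Between imatinib and ponatinib 10 mg/kg no member passed with edgeR, DESeq2 or limma voom (0.957% of all genes did with edgeR). Itgb2, Itgam and Itgal had an unadjusted p below 0.05, beside 10.7% of all genes, with log2 differences of -0.94 (95% interval -1.59 to -0.29), -1.53 (-2.77 to -0.29) and -0.73 (-1.33 to -0.14). Between ponatinib 10 and nilotinib 30 mg/kg no member passed with these 3 tools (1.65% of all genes with edgeR), and Selplg, Vcam1 and Itgax had an unadjusted p below 0.05, beside 13.4% of all genes. The log2 difference of Selplg was -1.21 (95% interval -2.04 to -0.38). Lcp1, Cd68 and the sinusoidal endothelial markers Stab2 and Clec4g were lower with ponatinib here. At 10 mg/kg once daily, the higher dose of ponatinib and the lower dose of nilotinib, the drugs are matched in mg/kg only. The paper calculated a larger plasma exposure for nilotinib than for ponatinib at this dose. Here the drugs differed in no member at the adjusted threshold with these tools, while 1.94% of all genes passed with edgeR. Itgax, Selplg, Itga4 and Vcam1 had an unadjusted p below 0.05, beside 15.0% of all genes, with log2 differences of -1.56 (95% interval -2.72 to -0.40), -1.11 (-1.94 to -0.27), -1.09 (-1.92 to -0.26) and -0.62 (-1.18 to -0.05).

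Other genes of adhesion were followed in 4 lists of 59 genes in all, of which 53 were tested. With imatinib 13 of the 53 were lower and none higher, where 4.50% of all genes were lower, and their median log2 fold change was -0.53, beside -0.02 over all genes. The list for inside-out activation of integrins, the signalling from chemokine receptors to the integrin tail, is not confined to this signalling. It also holds Syk, a kinase downstream of integrins and immune receptors. Of its 20 genes 8 were lower: Syk (log2 fold change -1.14, adjusted p = 0.0016), Tln1 or talin (-0.47, adjusted p = 0.0034), the small GTPase Rap1b (-0.58, adjusted p = 0.0039) and Vav1 (-1.01, adjusted p = 0.011), together with Apbb1ip, Lyn, Fermt3 and Stk4 (all from edgeR). Talin and kindlin-3, the product of Fermt3, bind the β tail directly. Of the other integrin chains 1 of 10 was lower, the β1 chain Itgb1 (-0.45, adjusted p = 0.0034 from edgeR), the alternative partner of α4. Of the selectins and their ligands 1 of 11 was lower, Cd44, the hyaluronan receptor, and all 11 were below 0. In the list of ligands and junction genes, which is not confined to endothelium, 3 of 12 were lower. These were Sirpa, the myeloid receptor of CD47 (-1.19, adjusted p = 0.0062), the matrix ligand Fn1 (-0.58, adjusted p = 0.0065) and Alcam (-0.57, adjusted p = 0.0084, all from edgeR).

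Some of these genes passed in the other comparisons with control, where edgeR called no member. Itgb1 was lower with ponatinib 10 mg/kg, from 244 ± 23.8 to 179 ± 40.6 CPM, and with L-NAME, at 176 ± 18.4 CPM (SD over 8 mice, adjusted p = 0.0029 and 0.0017 from edgeR). The laminin-binding chain Itga6 was lower with ponatinib 10 mg/kg (log2 fold change -1.26, adjusted p = 0.012 from edgeR). Rasgrp2, an exchange factor for Rap1, was higher with nilotinib 30 mg/kg, ponatinib 10 mg/kg and L-NAME (log2 fold changes 0.63, 0.70 and 0.60, adjusted p = 0.0076, 0.0013 and 0.0061 from edgeR). Fn1 was lower with both doses of nilotinib (-0.64 and -0.74, adjusted p = 0.015 and 0.0011) and with L-NAME (-0.59, adjusted p = 0.0048), and Alcam was lower with L-NAME (-0.62, adjusted p = 0.0031, all from edgeR). F11r, a junction protein, was lower with nilotinib 30 mg/kg (-0.36, adjusted p = 0.046 from edgeR). In all, 1 gene of the 53 was lower with nilotinib 10 mg/kg, 2 were lower and 1 higher with nilotinib 30 mg/kg, none passed with ponatinib 3 mg/kg, 5 were lower and 2 higher with ponatinib 10 mg/kg, and 5 were lower and 3 higher with L-NAME. The genes not yet named were Tln1, Rap1b and Stk4 (lower) and the platelet chain Itga2b (higher) with ponatinib, and Tln1 and Stk4 (lower) and Itgb3 and Itga2b (higher) with L-NAME. Over all genes, in either direction, 1.47%, 5.71%, 0.00699%, 12.8% and 11.7% passed in these 5 comparisons, so that with ponatinib 10 mg/kg and L-NAME the adhesion genes were called at about the rate of all genes. All these comparisons share the 8 control mice.

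Ratios of 2 genes within a mouse do not rest on the scaling between libraries, and 12 of them were compared with control for each treated group, 72 tests in all, by exact two-sided permutation of 8 against 8 mice. None passed at an adjusted p below 0.05, the lowest being 0.29, and 9 had an unadjusted exact p below 0.05. The smallest of these was Itgb2 over Icam1 with imatinib, where the mean log2 ratio was -0.82 ± 0.34 beside -0.12 ± 0.42 in control mice (exact permutation p = 0.0044, adjusted p = 0.29). The next smallest was the same ratio with L-NAME, at -0.67 ± 0.23 (exact permutation p = 0.0082, adjusted p = 0.29). Itgb2 over Ptprc, a gene of all leukocytes, was at -0.19 ± 0.41 with imatinib and 0.22 ± 0.37 in control mice (exact permutation p = 0.053, adjusted p = 0.38). It stood as low with L-NAME, at -0.21 ± 0.28 (exact permutation p = 0.019, adjusted p = 0.29), and with nilotinib 10 mg/kg, at -0.20 ± 0.56 (exact permutation p = 0.098, adjusted p = 0.54). Vcam1 over Pecam1, a gene of endothelium, was at 0.64 ± 0.44 with imatinib and 1.28 ± 0.60 in control mice (exact permutation p = 0.031, adjusted p = 0.32). Itga4 over Itgb7 was at -0.09 ± 0.76 with L-NAME and 0.73 ± 0.34 in control mice (SD over 8 mice, exact permutation p = 0.019, adjusted p = 0.29). The same ratio was at 0.31 ± 0.38 with nilotinib 30 mg/kg (exact permutation p = 0.035, adjusted p = 0.32) and, in the other direction, at 1.68 ± 1.56 with nilotinib 10 mg/kg (exact permutation p = 0.041, adjusted p = 0.32), a group that holds the mouse without an Itgb7 read.

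Over the 56 mice, with the mean of each group subtracted, 8 of the 10 members followed the mean log2 CPM of the 7 pan-leukocyte genes, none of which is a member. The relation was closest for Itgb2 (Pearson r = 0.87, Spearman rho = 0.87, permutation within groups adjusted p = 4e-05 for both, over 20 relations). It was followed by Itgal (r = 0.78, rho = 0.79), Icam1 (r = 0.74, rho = 0.76), Itgax (r = 0.71, rho = 0.67) and Vcam1 (r = 0.62, rho = 0.65), each with the same adjusted p, which rests on an unadjusted permutation p of 1e-05, the smallest that 100000 permutations can give. Itga4 (r = 0.51, rho = 0.57), Itgam (r = 0.49, rho = 0.49) and Selplg (r = 0.43, rho = 0.45) had adjusted permutation p-values of 0.00053, 0.0039 and 0.011 for r and 1e-04, 0.0019 and 0.0037 for rho. Itgb7 (r = 0.06, rho = 0.07, adjusted permutation p = 0.83 and 0.71) and Icam2 (r = 0.09, rho = 0.08, adjusted permutation p = 0.70 and 0.71) did not pass. Without the 2 mice farthest from the median marker level r was 0.87 for Itgb2, 0.77 for Itgal, 0.74 for Icam1, 0.69 for Itgax, 0.66 for Vcam1, 0.53 for Selplg and 0.52 for both Itga4 and Itgam. All values come from the same libraries and share their depth. The share of all genes that follows the pan-leukocyte level was not tested, so the count of 8 members has no background beside it.

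Within single groups of 8 mice, r between Itgb2 and the pan-leukocyte level was above 0 in 7 of 7 groups, between 0.53 and 0.96, and likewise for Itgax (0.59 to 0.85) and Itga4 (0.13 to 0.81). For Itgal, Icam1, Vcam1, Itgam and Selplg it was above 0 in 6 of 7 groups. The remaining group was imatinib in each case, with r of -0.21, -0.03, -0.12, -0.51 and -0.02, in the group where the summed pan-leukocyte level had its lowest SD, 22.3 CPM beside 57.5 to 111 CPM in the others.

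The sinusoidal endothelial level was followed by fewer members. For Vcam1 r was 0.29 and rho 0.25 (adjusted permutation p = 0.049 and 0.18). Its r was 0.21 without the 2 mice farthest from the median and 0.33 after the share of reads off annotated genes was removed. For the other 9 members r lay between -0.21 for Icam1 and 0.24 for Itgb7, with adjusted permutation p-values of 0.16 or more. Without the 2 farthest mice r was 0.27 for Itgb2, from 0.02, and 0.32 for Itga4, from 0.18. Icam1 and Icam2, ligands of the same integrin, stood at -0.21 and 0.22. Whether a member's r with leukocyte markers differed from that with endothelial markers was not tested.

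**Figure D4:**
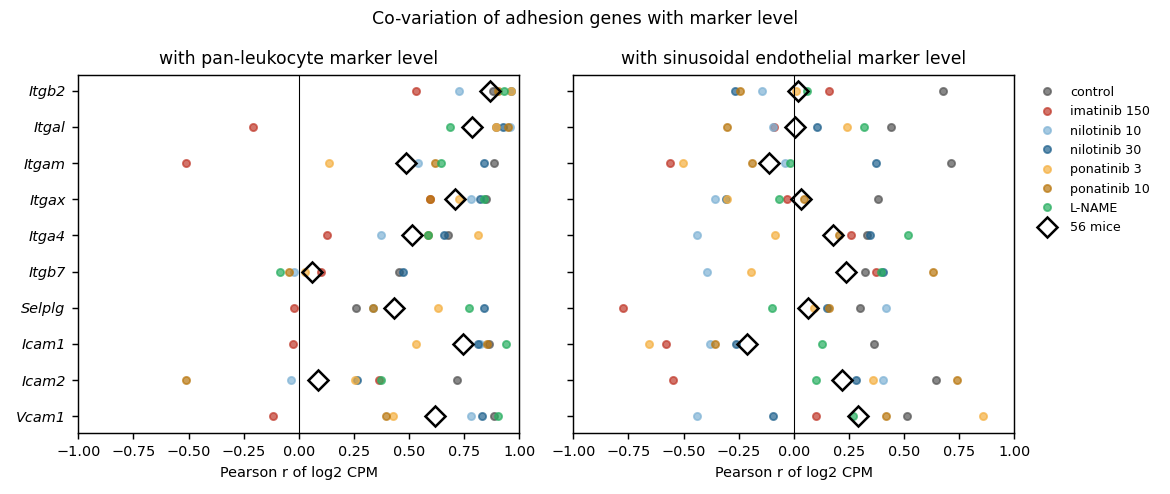
Pearson r of log2 CPM of each gene with the mean level of 7 pan-leukocyte markers (left) and 10 sinusoidal endothelial markers (right), over 56 mice after subtraction of group means (open diamonds) and within each group of 8 mice (coloured points). Itgb2 lies at 0.87 on the left and 0.02 on the right, and Icam2 at 0.09 and 0.22.

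Among the members themselves the highest r were those of Itgb2 with Itgal (0.73) and of Itgb2 and Itgal with Icam1 (0.69 and 0.67), given as a description over 56 mice. Itga4 and Itgb7 had r = 0.57, and Itgb7 and Selplg had the lowest, -0.13. Of 10330 genes with a mean of at least 5 CPM, those most like Itgb2 were Sirpa (r = 0.89), Lgmn (0.88), Sdc3 (0.88), Lyz2 (0.87), C1qb (0.86) and Cd5l (0.86). Itgal stood at place 40 and Icam1 at place 64 of this order, and Itgb7 at place 3283. Those most like Vcam1 were Clec7a (r = 0.77), Irf8 (0.75), Slc7a8 (0.74), Psap (0.73), Abcg1 (0.72) and Lpl (0.72). In this order Icam1 was the first of the members, at place 110 with r = 0.52, ahead of Itgax at place 150.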

How the data were processed

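Liver poly(A) mRNA of 56 mice was sequenced, and the authors deposited raw counts per Ensembl gene and mouse. Per the submitters' processing notes, reads were aligned to GRCm38 with TopHat2 2.0.14 and Bowtie2 2.1.0, handled with SAMtools 0.1.18 and counted with HTSeq 0.6.1p1. Reads with several alignments were counted on no gene. Whether counting used strand is not given in the sources used here. Symbols came from GENCODE M21 (44585 of 45513 identifiers matched), and summary rows of the counter were left out.

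Counts of all 56 mice entered 1 fit in edgeR 4.0.16 (TMM, filterByExpr by group, robust quasi-likelihood F test), leaving 14314 genes, and a gene was called at a Benjamini-Hochberg adjusted p below 0.05. Standard errors were taken from the F statistic and 95% intervals from 49 residual degrees of freedom. Ratios used 0.5 of a count as offset and correlations log2 CPM with a prior count of 2. Alternatives were DESeq2 1.42.0, limma 3.58.1 voom with and without sample weights, RLE scaling, no filter, other sets of mice, a covariate for the share of reads outside genes and the unadjusted p below 0.01 that the study used. The fits were also run on simulated data, the outcome of which is not given here. The text names the 10 members in each comparison, called genes of the other adhesion lists (up to 8 of smallest p for imatinib and 3 for another group, further ones by name where a count of a list is given), the 3 most abundant markers of a list, and the 6 genes most like Itgb2 and Vcam1. Marker and adhesion genes named beyond this rule were named after their values were seen. The members and lists were chosen with earlier results of these data known. Mice carry numbers in the order of deposition, so no paired fit was made. The 196 pairs of mice of a group differed by more than sampling noise (chi-square per gene at least 10.3, where 1 is expected of counting error).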

Additional observations from a re-analysis of the deposited data

Results flagged for a closer look

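In 6 of the 70 sets of 8 mice (10 genes in 7 groups) the highest or lowest mouse stood apart by more than Dixon's 95% critical value for its gap over the range, a rule that chance meets in about 1 of 20 sets. Among the mice given imatinib, replicate 2 was the highest for Itgb2, at 23.3 CPM beside 14.9 CPM in the next mouse, and for Itgax, at 9.94 CPM beside 4.74 CPM. Without this mouse Itgax passed the adjusted threshold with imatinib, and Itga4 did not. Itgax was also high in 1 mouse at each dose of nilotinib, at 40.0 CPM in nilotinib 10 mg/kg replicate 6, where the next mouse had 13.5 CPM, and at 28.5 CPM in nilotinib 30 mg/kg replicate 7, where the next had 12.0 CPM. With ponatinib 10 mg/kg, replicate 2 had 21.1 CPM of Itgam, beside 9.19 CPM in the next mouse, and the lowest Icam2 of its group, 0.464 CPM from 5 reads, where the next mouse had 2.72 CPM. No cause of these values was tested.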

How the results depend on the processing

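Under up to 10 alternatives and 56 fits that each left out 1 mouse, the number of members called against control stayed at 0 for nilotinib at both doses and ponatinib 3 mg/kg. For imatinib, 4 in the edgeR fit, it was 2 with the share of reads off genes in the model and 2 without the mice over 14% (an alternative chosen after seeing the data), 3 to 6 under the other alternatives, and 2 to 5 with 1 mouse left out. Itgb2 and Itgal were called in all of these fits. Vcam1 was not called by limma voom, and neither Vcam1 nor Itga4 with the share in the model or without the mice over 14%. For ponatinib 10 mg/kg, 0 in the edgeR fit, DESeq2 gave 1, beside 2223 of all genes, and voom with sample quality weights 2, beside 3683. With 1 mouse left out the number of members was 0 to 1. For L-NAME voom with weights gave 1, beside 3687 of all genes. For imatinib against nilotinib 30 mg/kg, 4 in the edgeR fit, limma voom gave 2, and leaving out 1 mouse 2 to 5. At an unadjusted p below 0.01 the count was 1 for imatinib against ponatinib 10 mg/kg, beside 566 of all 14314 genes. It was 1 for ponatinib 10 against nilotinib 30 mg/kg (1 also with weights), beside 786 genes. For ponatinib against nilotinib at 10 mg/kg it was 2, beside 946 genes. The cause of these shifts was not tested. Of 530 fold changes of members against control under alternatives, 29 changed sign, 0 of them called. No ratio passed with 2 counts added or with medians. No paired analysis was possible because the replicate numbers only name mice in the order of deposition. Members with few reads, Itgam and Icam2 above all, have wide intervals. Over all genes, with the share in the model, calls against control went from 1457 to 645 for imatinib, from 210 to 15 and from 818 to 103 for nilotinib 10 and 30 mg/kg, from 1839 to 351 for ponatinib 10 mg/kg and from 1675 to 254 for L-NAME. With weighted voom they were 3260, 1224, 2315, 3683 and 3687 in this order, and 509 for ponatinib 3 mg/kg, where edgeR called 1, DESeq2 48, and limma voom, the fit of 48 mice and that of 16 mice 0. For nilotinib 10 mg/kg DESeq2 called 504, limma voom 348 and the unfiltered fit 123, for L-NAME limma voom called 2531, and for nilotinib 30 mg/kg the fit of 16 mice called 1401.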
